A study of Mus musculus with 6 samples.

Results

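The genes described here are 9 genes by which the liver makes and releases glucose or controls its phosphorylation, namely Pck1, G6pc1, Fbp1, Pcx, Ppargc1a, Gckr, Pklr, Pfkfb3 and Slc37a4. They were chosen by symbol from a liver RNA-seq table of 28880 genes, and each symbol matched 1 gene. Liver RNA was sequenced from 3 mice given a single binge of ethanol and from 3 control mice. All were wild type male C57BL/6J mice aged 6 to 8 weeks, and all libraries carry the same batch label. The ethanol mice went without food for 12 h, then received 50% (v/v) ethanol by mouth once, at 6 g/kg, and their livers were taken 24 h after the dose. The controls are described as kept without ethanol, and whether they were fasted or gavaged with a vehicle is not stated, so ethanol, fasting and gavage cannot be told apart in this comparison. The model is a single dose and holds no chronic exposure.

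Hepatocytes build glucose from lactate, amino acids and glycerol when dietary glucose is short. Pyruvate carboxylase and cytosolic phosphoenolpyruvate carboxykinase (PEPCK) carry pyruvate back to phosphoenolpyruvate, fructose bisphosphatase removes a phosphate from fructose 1,6-bisphosphate, and glucose 6-phosphatase, fed by a transporter in the endoplasmic reticulum membrane, releases free glucose. Each of these steps is opposed by an enzyme of glycolysis, such as pyruvate kinase or phosphofructokinase, and hormones such as glucagon, glucocorticoids and insulin shift the balance, in part through the coactivator PGC-1 alpha. Sugar phosphates also induce the glucose 6-phosphatase gene, through the factor ChREBP, and insulin represses it.

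The sequences before the start sites of 5 of these genes are shown because Pck1 and G6pc1, the textbook pair of hormone-controlled gluconeogenic genes, were measured in opposite directions, and because the other three (Ppargc1a, Pfkfb3 and Slc37a4) hold the same short letters as Pck1. Each run is 250 bases long, 5′ to 3′ on the gene's strand, ends at the base before the annotated start, and is taken from RefSeq on GRCm38.p6. Capitals mark a match to the core of the cyclic AMP response element (TGACGT, or ACGTCA where it lies on the other strand) in every gene but G6pc1, where they mark the insulin response letters TGTTTTG. G6pc1 is listed as G6pc in that RefSeq release.
Pck1, chr2:173152823-173153072, + strand: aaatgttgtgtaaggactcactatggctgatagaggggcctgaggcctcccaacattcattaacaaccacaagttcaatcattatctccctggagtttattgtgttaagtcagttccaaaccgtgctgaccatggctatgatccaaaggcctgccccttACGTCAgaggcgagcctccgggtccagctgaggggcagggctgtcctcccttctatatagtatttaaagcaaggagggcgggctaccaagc
G6pc1, chr11:101367466-101367715, + strand: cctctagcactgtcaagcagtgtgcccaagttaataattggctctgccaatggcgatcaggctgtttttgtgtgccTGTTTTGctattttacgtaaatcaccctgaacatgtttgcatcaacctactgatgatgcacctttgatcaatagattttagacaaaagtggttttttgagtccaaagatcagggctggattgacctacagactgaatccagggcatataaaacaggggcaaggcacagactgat
Ppargc1a, chr5:51567726-51567975, - strand: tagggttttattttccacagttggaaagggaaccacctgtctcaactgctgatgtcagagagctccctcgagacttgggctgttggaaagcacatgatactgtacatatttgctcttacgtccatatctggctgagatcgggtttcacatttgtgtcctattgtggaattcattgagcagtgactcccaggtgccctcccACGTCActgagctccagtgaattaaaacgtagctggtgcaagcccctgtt
Pfkfb3, chr2:11553930-11554179, - strand: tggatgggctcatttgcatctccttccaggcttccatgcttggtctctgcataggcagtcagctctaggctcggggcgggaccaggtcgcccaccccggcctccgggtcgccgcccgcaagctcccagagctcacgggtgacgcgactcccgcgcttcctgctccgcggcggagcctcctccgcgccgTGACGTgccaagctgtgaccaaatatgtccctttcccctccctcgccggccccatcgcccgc
Slc37a4, chr9:44396696-44396945, + strand: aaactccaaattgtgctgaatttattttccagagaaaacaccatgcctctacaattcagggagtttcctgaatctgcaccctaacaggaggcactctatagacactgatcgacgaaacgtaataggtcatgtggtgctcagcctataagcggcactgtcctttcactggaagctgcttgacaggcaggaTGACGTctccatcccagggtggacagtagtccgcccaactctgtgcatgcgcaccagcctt

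The TGACGT core lay 91 to 86 bases before the start of Pck1 and 50 to 45 bases before that of Ppargc1a, in both on the other strand (the positions are −91 to −86 and −50 to −45). It lay at −62 to −57 in Pfkfb3 and at −61 to −56 in Slc37a4, and Slc37a4 has a second annotated start whose window holds the same site. In all, 4 of the 9 genes, or 5 of their 14 annotated windows, held the core, which occurs on either strand in 6.47% of the 32851 promoter windows of the same length. TGTTTTG occurred in G6pc1 (−174 to −168) and in Gckr (−83 to −77), and in 5.56% of all windows. The E-box CACGTG occurred in the first window of Pcx and the second of Pfkfb3 (6.02% of all windows), the glucocorticoid half-site TGTTCT in Gckr alone (16.1%), and the forkhead letters TGTTTAC in none of the 14 (3.17%). Such matches describe the letters of these windows and nothing more.

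For each gene the authors deposited a read count and an FPKM value, in which the count is divided by transcript length and by the depth of the library. Totals ran from 60514417 to 74210869 counts per library, so that counting error is small for all 9 genes and the 3 mice per group set the precision. Counts were scaled by TMM, which sets the typical gene to no change, and are given as CPM, counts scaled to a common library size. The TMM factors were 0.768 to 0.836 in the ethanol libraries and 1.26 to 1.27 in the controls. Over the 16717 genes tested with edgeR's quasi-likelihood test, 3598 passed an adjusted p (Benjamini-Hochberg) of 0.05 as higher and 3591 as lower under TMM, against 1236 (7.39%) and 8077 (48.3%) under library size alone, where the median gene moved from −0.04 to −0.71 on the log2 scale. All changes below are therefore relative to the typical gene of the liver. Hepatocyte markers were present in every library (Alb at 49600 CPM or more), and their summed level was 140000 to 144000 CPM after ethanol and 75100 to 87600 in the controls. Of these 12 markers, 9 passed as higher under TMM, beside 21.5% of all genes, and none as lower. Under library size alone only Apoa1 (log2 fold change 0.57) and Tat (1.47) passed as higher, and Cps1 (−0.47) as lower. Alb (0.15), Hnf4a (0.02) and the other markers did not pass there, so the rise of most of them depends on the scaling. In bulk tissue, more cells of a type and more RNA per cell cannot be told apart. Neutrophil markers were low in both groups but higher after ethanol (a summed 3.06 to 14.9 CPM against 1.21 to 1.72, with 4 of 5 tested members passing, Mpo and Elane at 0 in every ethanol library and Ly6g at 0 in all but 1 library), and their part in the results was not tested. Markers of Kupffer cells (1 higher and 2 lower of 8), endothelial cells (1 and 3 of 8), stellate cells (3 and 0 of 8) and cholangiocytes (1 and 0 of 5) moved less uniformly, none of the 2 tested muscle markers passed, and pancreas markers summed to at most 1.36 CPM.

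Ethanol exposure went with higher transcripts of Pcx, Pck1, Fbp1 and the glucose 6-phosphate transporter Slc37a4 relative to the typical gene, with G6pc1 7.41-fold lower, and with Pfkfb3 8.06-fold higher. Of the 9 genes, 6 passed an adjusted p of 0.05 in edgeR, against a background of 43.0% of all genes tested. Pcx, Pck1, Fbp1, Slc37a4 and Pfkfb3 were higher (5 of 9, background 21.5%) and G6pc1 was lower (1 of 9, background 21.5%) under TMM. Under library size alone 2 were higher, Slc37a4 and Pfkfb3 (background 7.39%), 3 were lower, G6pc1, Gckr and Pklr (background 48.3%), and the sign of Fbp1 turned. Without ethanol replicate 3, which stood apart from the other two in several of these genes, 6 were higher and 1 lower. Without any other single library 4 were higher and 1 lower, Pck1 no longer passing. Calls over all genes moved the same way. They numbered 4284 higher and 4668 lower without ethanol replicate 3, and 2463 and 2311 without control replicate 3, beside 3598 and 3591 with all libraries. With a log2 fold change beyond 1 as well, the study's threshold for a differentially expressed gene, Pck1, Slc37a4 and Pfkfb3 remained as higher (3 of 9, background 10.4%) and G6pc1 as lower (1 of 9, background 13.8%), or 4 of 9 against a background of 24.2%. The groups did not overlap in 7 of the 9 genes, against 59.0% of all genes, with ethanol above in 5 (background 28.0%) and below in G6pc1 and Pklr (2 of 9, background 31.0%). Gckr and Ppargc1a were the exceptions.

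**Figure D1:**
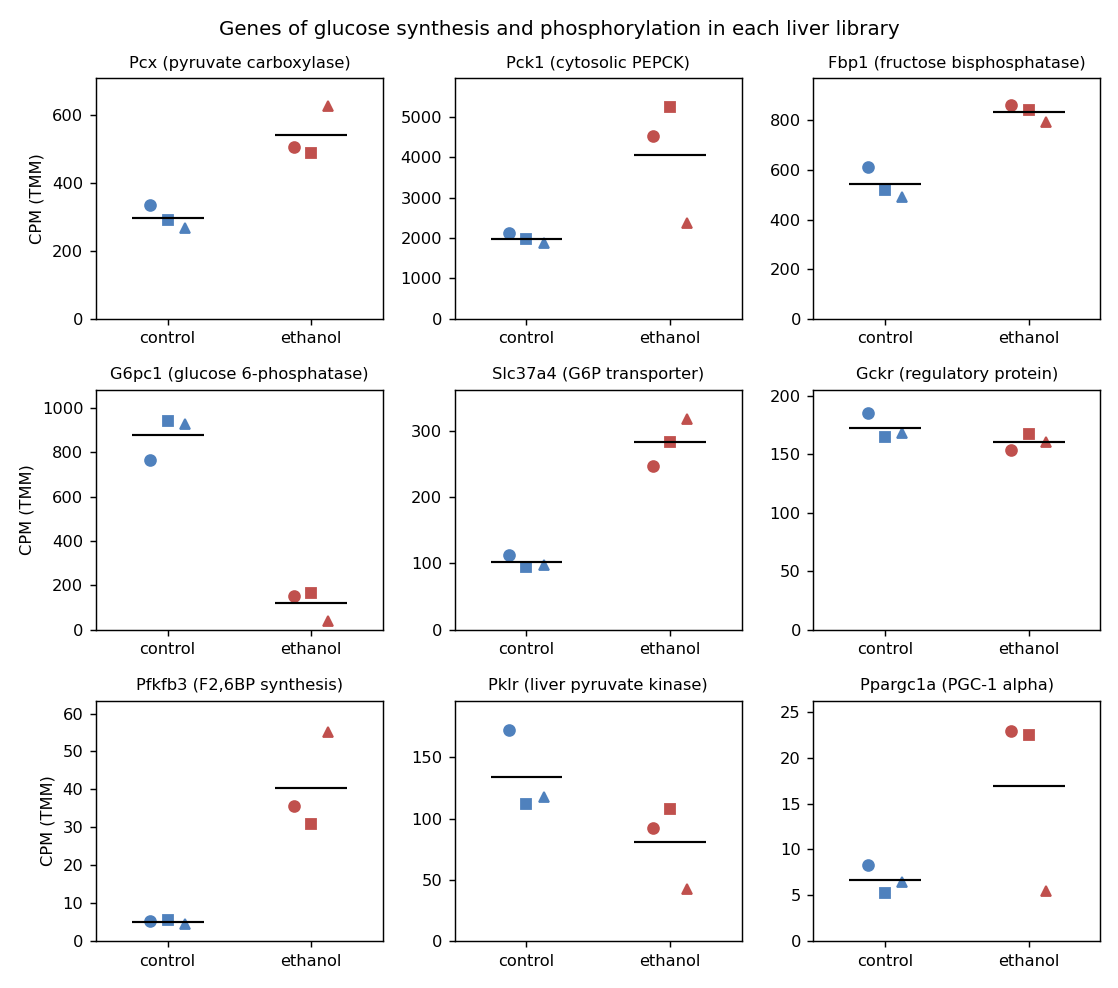
Each panel plots 1 gene in TMM-scaled CPM (vertical axis, starting at 0) for the 3 control and the 3 ethanol libraries. The circle, square and triangle are replicates 1, 2 and 3 and the line is the group mean. G6pc1 lies at 39.7 to 165 after ethanol against 768 to 940 in the controls, and ethanol replicate 3 is the lowest ethanol library for Pck1, G6pc1, Ppargc1a and Pklr.

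Pcx (ENSMUSG00000024892, chromosome 19, 4560514 to 4671707, plus strand, in the coordinates of the deposited table) encodes pyruvate carboxylase, the mitochondrial enzyme that makes oxaloacetate from pyruvate. Its level was 506, 486 and 624 CPM in ethanol replicates 1, 2 and 3, and 335, 289 and 266 CPM in the control replicates. Every ethanol library lay above every control in TMM-scaled CPM, with replicate 3 the highest, while in FPKM the groups overlapped (77.2, 79.8 and 94.1 against 83.4, 71.6 and 65.7). Pcx rose 1.82-fold under TMM (log2 fold change 0.86 ± 0.15 SE, 95% interval 0.52 to 1.2, adjusted p = 0.00357 in edgeR, n = 3 per group). The log2 difference under library size alone was 0.19 and did not pass. Lrfn4, on the opposite strand of the same locus, had at most 128 counts in any library.

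Pck1 (ENSMUSG00000027513, chromosome 2, 172994841 to 173001066, plus strand) encodes cytosolic PEPCK, the textbook rate-controlling enzyme of hepatic gluconeogenesis. It was measured at 4520, 5250 and 2380 CPM after ethanol and at 2120, 1970 and 1870 CPM in the controls. In these units the groups did not overlap, but ethanol replicate 3 stood close to the controls and the other two were more than 2-fold above them. In FPKM, at 956, 1190 and 497 against 733, 678 and 642, ethanol replicate 3 lay below every control. Pck1 rose 2.04-fold under TMM (log2 fold change 1.03 ± 0.28 SE, interval 0.38 to 1.67, adjusted p = 0.0213 in edgeR). The log2 difference under library size alone was 0.37 and did not pass (adjusted p = 0.315 in edgeR). The call under TMM depended on the libraries used. Without ethanol replicate 3 the log2 fold change was 1.31 (adjusted p = 6.62e-05 in edgeR). It did not pass without ethanol replicate 1 (0.94) or 2 (0.80), or without control replicate 1 (1.07), 2 (1.02) or 3 (0.98), and the adjusted p ran from 6.62e-05 to 0.468 over all 16 alternatives.

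Fbp1 (ENSMUSG00000069805, chromosome 13, 63012567 to 63036096, minus strand) encodes the liver fructose bisphosphatase, which undoes the phosphofructokinase step. Levels were 863, 844 and 792 CPM after ethanol against 614, 519 and 493 CPM in the controls. Both groups were tight and did not overlap under this scaling. Fbp1 rose 1.54-fold by TMM (log2 fold change 0.62 ± 0.12 SE, interval 0.33 to 0.91, adjusted p = 0.00654 in edgeR), but under library size alone the sign turned (−0.05), and in FPKM the groups overlapped, at 368, 387 and 334 against 427, 360 and 341.

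G6pc1 (ENSMUSG00000078650, chromosome 11, 101258387 to 101268729, plus strand) encodes the catalytic subunit of glucose 6-phosphatase, the last step of both gluconeogenesis and glycogen breakdown. Its level fell from 768, 940 and 929 CPM in the controls to 152, 165 and 39.7 CPM after ethanol. The lowest control was still more than 4-fold above the highest ethanol library, and ethanol replicate 3 was the lowest of all. The fitted change was a 7.41-fold fall (log2 fold change −2.89 ± 0.50 SE, interval −4.06 to −1.72, adjusted p = 0.00374 in edgeR). It passed under all 16 alternatives, with log2 fold changes of −3.2 to −2.46 when single libraries were left out and −3.54 under library size alone.

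Slc37a4 (ENSMUSG00000032114, chromosome 9, 44308149 to 44314263, plus strand) encodes the transporter that carries glucose 6-phosphate into the endoplasmic reticulum, where G6pc1 protein works. It stood at 247, 283 and 318 CPM after ethanol and at 113, 94.9 and 97 CPM in the controls. All ethanol libraries were more than 2-fold above all controls. Slc37a4 rose 2.78-fold (log2 fold change 1.48 ± 0.14 SE, interval 1.16 to 1.79, adjusted p = 0.000349 in edgeR), the opposite direction to its partner. It also passed under library size alone, at 0.81.

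The ratio of Slc37a4 to G6pc1 within a library does not depend on the scaling between libraries. In FPKM it was 1.38, 1.45 and 6.78 after ethanol and 0.124, 0.0852 and 0.0882 in the controls, a difference of 4.61 on the log2 scale. This ratio was chosen after the values were seen and was not tested. The related family members did not stand in for G6pc1 by level. G6pc3, the ubiquitous glucose 6-phosphatase, had 5.47 to 6.85 CPM after ethanol and 4.7 to 5.89 in the controls (log2 fold change 0.23, adjusted p = 0.321 in edgeR), and G6pc2, the islet form, had at most 0.574 CPM. G6pc1 made up 95.8%, 95.6% and 86.0% of the family's summed FPKM after ethanol and 99.1% to 99.4% in the controls.

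Gckr (ENSMUSG00000059434, chromosome 5, 31454787 to 31484658, plus strand) encodes a nuclear regulatory protein that restrains glucose phosphorylation in hepatocytes when glucose is low. Its levels were 154, 167 and 160 CPM after ethanol and 185, 165 and 168 CPM in the controls. The groups overlapped. The log2 difference was −0.10 ± 0.10 SE (interval −0.34 to 0.13, adjusted p = 0.426 in edgeR), which bounds any change under TMM to well under 2-fold. Under library size alone it was −0.77 and passed as lower, which places it close to the median gene's −0.71. The glucose carrier Slc2a2 (GLUT2) showed no detectable difference (log2 fold change 0.00 ± 0.26 SE, adjusted p = 0.991 in edgeR).

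Pfkfb3 (ENSMUSG00000026773, chromosome 2, 11476244 to 11558888, minus strand) encodes an inducible kinase that makes fructose 2,6-bisphosphate, the metabolite that stimulates phosphofructokinase and inhibits fructose bisphosphatase. It was a low transcript in the controls, at 5.15, 5.41 and 4.49 CPM, and stood at 35.5, 30.8 and 55.1 CPM after ethanol. Every ethanol library was more than 5-fold above every control, and replicate 3 was the highest. Pfkfb3 rose 8.06-fold (log2 fold change 3.01 ± 0.24 SE, interval 2.45 to 3.57, adjusted p = 0.000215 in edgeR), and 2.33 on the log2 scale under library size alone.

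This changed the make-up of its family. Pfkfb1, the liver form whose phosphatase activity is switched on by glucagon signalling, provided 79.6%, 79.8% and 80.4% of the family's summed FPKM in the controls and 48.0%, 53.1% and 20.9% after ethanol. Pfkfb3 provided 6.46%, 5.84% and 5.32% in the controls and 38.4%, 33.0% and 55.0% after ethanol. Pfkfb1 itself was at 23.6, 26.2 and 11.1 CPM against 33.5, 39.0 and 35.6, a log2 difference of −0.83 that did not pass with all libraries (adjusted p = 0.0562 in edgeR) and passed as lower without ethanol replicate 3 (−0.52, adjusted p = 0.00448) and without ethanol replicate 2. Pfkfb2 (0.33, adjusted p = 0.419) and Pfkfb4 (1.12, adjusted p = 0.0555) did not pass.

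Pklr (ENSMUSG00000041237, chromosome 3, 89043449 to 89053901, plus strand) encodes liver pyruvate kinase, the glycolytic step that opposes Pcx and Pck1 and a classic target of ChREBP. Levels were 91.9, 108 and 42.3 CPM after ethanol and 172, 112 and 118 CPM in the controls. The groups did not overlap, though ethanol replicate 2 and control replicate 2 almost met. The log2 difference of −0.73 ± 0.34 SE (interval −1.53 to 0.07) did not pass in edgeR (adjusted p = 0.123). Under library size alone it was −1.38 and passed. Hcn3, on the opposite strand, had 122 to 359 counts per library. Within libraries, Pck1 over Pklr in FPKM was 46.5, 45.9 and 53.1 after ethanol and 11.7, 16.6 and 15.0 in the controls. Pkm, the other pyruvate kinase gene, was a minor form (6.64% to 24.2% of summed FPKM after ethanol, 3.18% to 5.91% in the controls) and did not pass (log2 fold change 0.62, adjusted p = 0.075 in edgeR).

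Ppargc1a (ENSMUSG00000029167, chromosome 5, 51611592 to 51725046, minus strand) encodes PGC-1 alpha, a coactivator that fasting induces in liver and that drives Pck1 and G6pc1 with HNF4A and FOXO1. It was measured at 23, 22.5 and 5.46 CPM after ethanol and at 8.32, 5.28 and 6.46 CPM in the controls. The first 2 ethanol libraries were more than 2-fold above every control and ethanol replicate 3 lay among the controls. The log2 difference of 1.34 ± 0.50 SE (interval 0.17 to 2.52) did not pass in edgeR (adjusted p = 0.0653). It passed without ethanol replicate 3 (1.78, adjusted p = 0.000158) and in DESeq2 (1.32, adjusted p = 0.0101), and the adjusted p ran from 0.000158 to 0.515 over its 15 alternatives. Gm42614, an overlapping gene on the same strand, had 0 to 87 counts after ethanol and 0 to 8 in the controls.

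**Figure D2:**
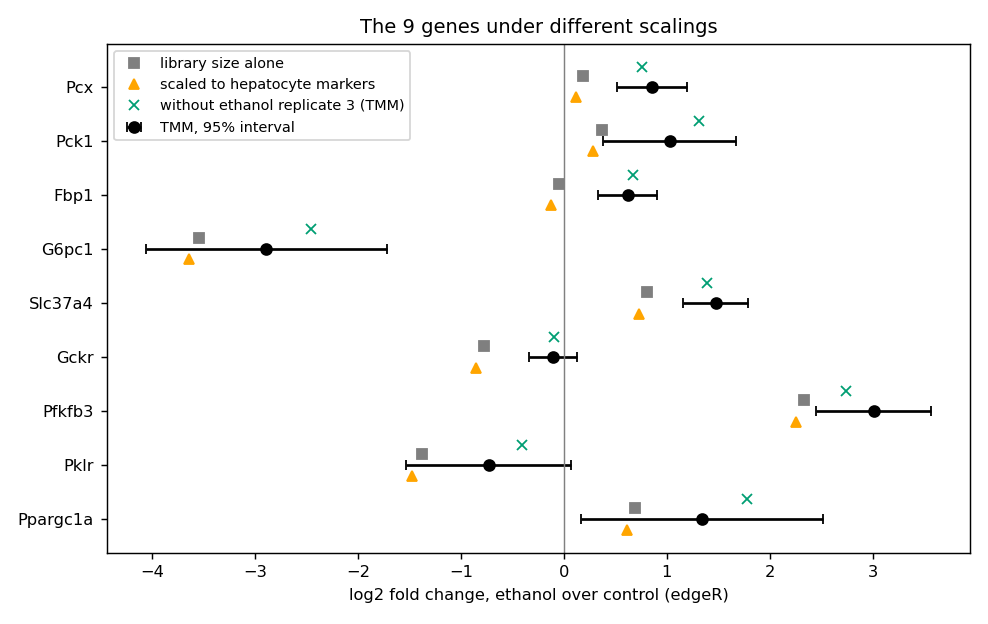
Log2 fold change of each gene, ethanol over control (horizontal axis), under TMM with its 95% interval (black), under library size alone (grey squares), scaled to the hepatocyte markers (orange triangles) and under TMM without ethanol replicate 3 (green crosses). The estimate of every gene but Fbp1 keeps its side of 0, and G6pc1, Slc37a4 and Pfkfb3 also pass in each setting shown. Fbp1 goes from 0.62 to −0.05 under library size alone and to −0.12 under hepatocyte marker scaling.

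Scaling thus divided the 9 genes. Relative to the shifted median gene, the library size values were 1.08 for Pck1, 0.66 for Fbp1, 0.90 for Pcx, 1.52 for Slc37a4, 3.04 for Pfkfb3, −2.83 for G6pc1 and −0.06 for Gckr, close to those under TMM. When the libraries were scaled to the 12 hepatocyte markers, G6pc1 (−3.64), Slc37a4 (0.73) and Pfkfb3 (2.26) still passed. Pck1 (0.28) and Pcx (0.12) did not, the sign of Fbp1 turned (−0.12), and Gckr (−0.85) and Pklr (−1.47) passed as lower. Against these 12 markers as a set, then, Pcx, Pck1 and Fbp1 were not detectably higher, and G6pc1, Slc37a4 and Pfkfb3 differed in the same directions as under TMM. The set includes Tat (2.13 under TMM, 1.47 under library size alone) and Apoa1 (1.24 and 0.57), which passed as higher under both. The reference is thus not free of genes that differ between the groups, and scaling without these genes was not tested.

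The within-library ratios carry no such dependence. The ratios of opposed genes given here separated the groups completely. Pck1 over Pklr was higher after ethanol (mean log2 difference 1.76), and so was Fbp1 over Pfkl (1.46), at 194, 156 and 279 against 84.1, 69.0 and 69.2. Each had p = 0.1 in the exact two-sided permutation test, the smallest value that 3 against 3 libraries can give, and 0.1 after adjustment over the 4 ratios tested, so that none could reach 0.05 in this design. A ratio shows unequal change of its members and not which of them moved.

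**Figure D3:**
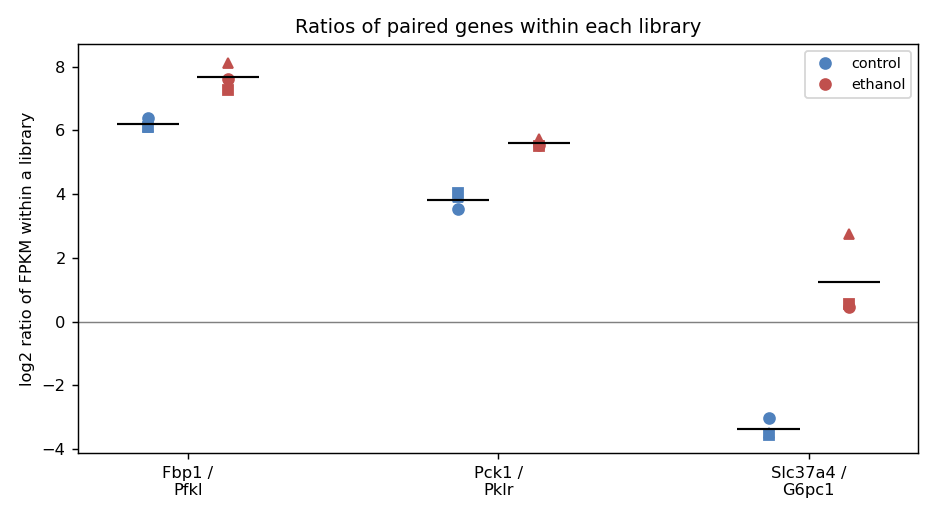
Log2 ratio of the FPKM of paired genes within each library (vertical axis), with controls in blue, ethanol libraries in red and lines at the group means. The circle, square and triangle are replicates 1, 2 and 3. None of the ratios shown overlaps between the groups, and that of Slc37a4 to G6pc1 was added after its values were seen.

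Per length, the order of the 9 genes differed between the groups. In the controls Pck1 led (684 ± 45.7 FPKM, mean ± SD, n = 3), followed by G6pc1 (429 ± 46.1) and Fbp1 (376 ± 45.1), which overlapped each other, then Pcx (73.6 ± 9.01), Pklr (48.8 ± 12.1), Gckr (46.9 ± 3.08) and Slc37a4 (42.0 ± 4.21), and last Ppargc1a (1.19 ± 0.279) and Pfkfb3 (0.776 ± 0.0777). Pklr overlapped with Gckr, and Gckr with Slc37a4. After ethanol Pck1 (882 ± 354) and Fbp1 (363 ± 27.0) led, and G6pc1 ranked 5 of 9 (36.8 ± 22.0 FPKM), overlapping with Gckr (27.4 ± 2.26), which overlapped with Pklr (18.7 ± 8.49). Pcx (83.7 ± 9.07) and Slc37a4 (73.3 ± 9.22) overlapped with each other and stood above it. Pfkfb3 (3.92 ± 1.12) and Ppargc1a (1.93 ± 1.16) came last.

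Most of the wider set of gluconeogenic enzymes and carriers that passed moved in the direction of Pcx and Pck1. Of 33 genes tested, 16 were higher, 2 were lower and 15 did not pass in edgeR, with a median log2 fold change of 0.36 beside −0.04 over all genes. The share that passed was 54.5%, beside 43.0% of all genes. Under library size alone, 13 of those 16 kept their sign (Fbp1, Mdh1 and Mdh2 did not) and 5 still passed. The list then held 11 lower genes of 33, beside 48.3% of all genes lower there. The counts ran from 13 to 19 higher and from 1 to 4 lower with single libraries left out (19 and 4 without ethanol replicate 3, 1 lower without control replicate 2). Got1, Slc37a1 and Sds had the largest changes under TMM, and Got1 and Sds act in the entry of amino acids into the pathway. Got1, the cytosolic aspartate aminotransferase, went from 164, 120 and 121 CPM in the controls to 2120, 2130 and 1360 after ethanol (log2 fold change 3.79, adjusted p = 9.93e-05 in edgeR). Sds, the serine dehydratase that makes pyruvate from serine, went from 123, 95.4 and 96.8 to 1430, 1160 and 1480 CPM (3.69, adjusted p = 5.61e-05). Both gains were more than 8-fold in every pair of libraries, and both passed under library size alone (3.13 and 3.01). Slc37a1, a relative of Slc37a4, was far less abundant and went from 1.19, 1.51 and 1.4 CPM to 13, 11.4 and 31.4 (3.77, adjusted p = 0.000777 in edgeR), and it too passed under library size alone (3.08). Plbd2, on the opposite strand from Sds, had 6052 to 7560 counts after ethanol and 3955 to 5187 in the controls.

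Members that carry or convert pyruvate, malate or amino acids had otherwise smaller changes than Got1, Slc37a1 and Sds. Both subunits of the mitochondrial pyruvate carrier were higher, Mpc1 (1.16, adjusted p = 0.000337) and Mpc2 (0.84, adjusted p = 0.000997), as were the alanine aminotransferases Gpt (0.87) and Gpt2 (1.05), the malate dehydrogenase Mdh2 (0.63), the dicarboxylate carrier Slc25a10 (0.84), the aspartate-glutamate carrier Slc25a12 (1.02) and lactate dehydrogenase Ldha (0.99, adjusted p = 0.0134, which did not pass without control replicate 1 or 3). Of these, Mpc1 also passed under library size alone (0.50), and Mdh2 turned sign there (−0.04). Besides G6pc1, the lower member was Slc37a3 (−0.73, adjusted p = 0.0118, which did not pass without control replicate 2). Pck2, the mitochondrial PEPCK, made up at most 0.0822% of summed PEPCK FPKM and did not pass (0.13, adjusted p = 0.728). Fbp2, the muscle form, was too low to be tested.

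**Figure D4:**
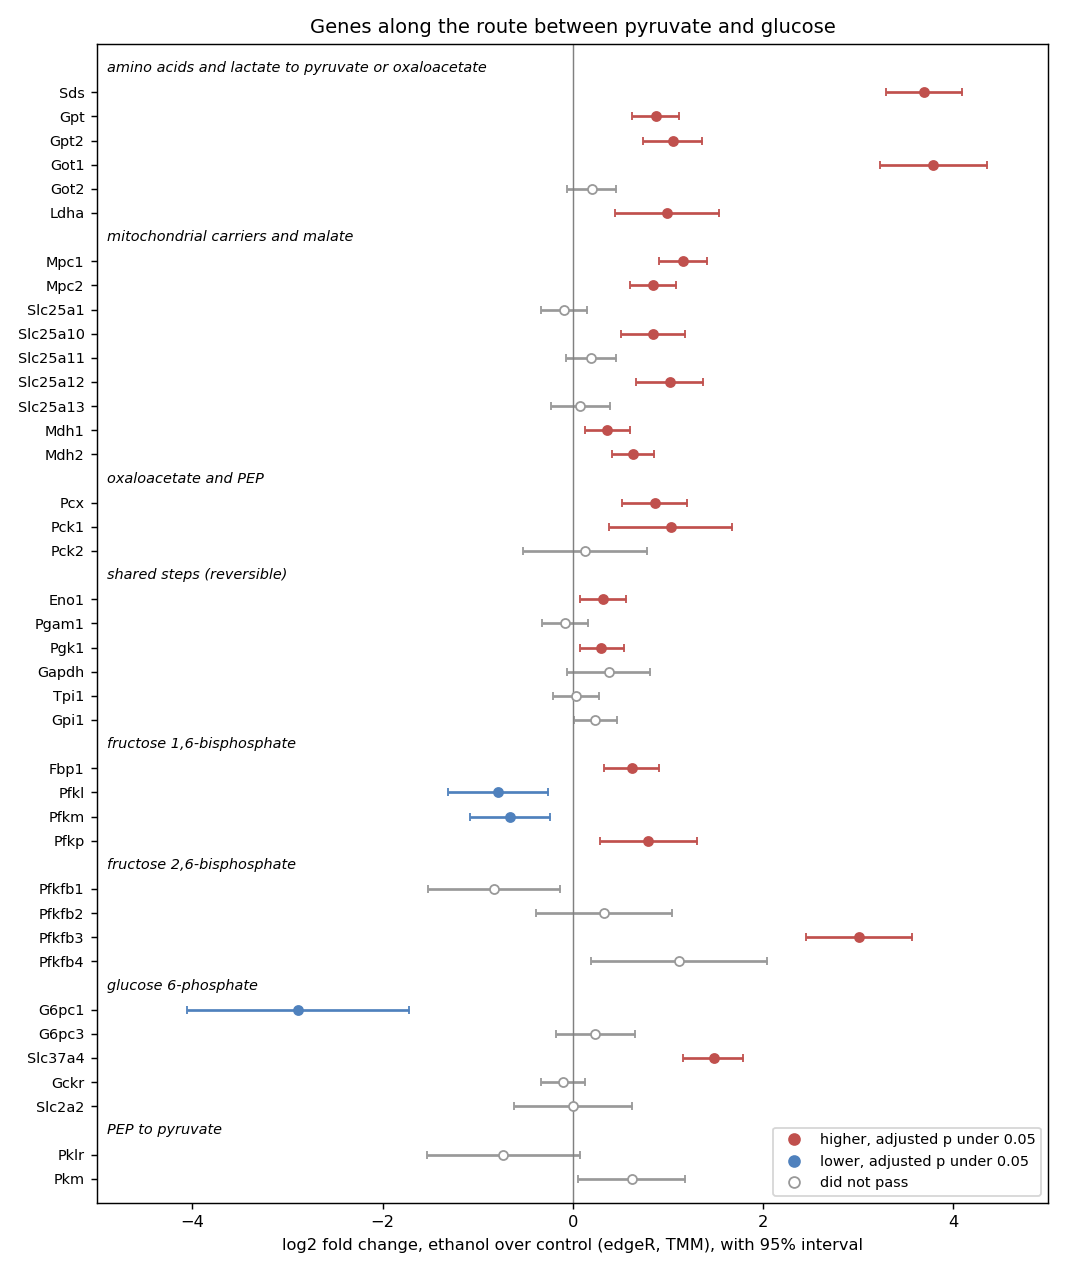
Log2 fold change with its 95% interval (horizontal axis, edgeR with TMM) for genes placed along the route from amino acids and lactate through phosphoenolpyruvate (PEP) to glucose, filled where the adjusted p was under 0.05. Genes of the early steps lie mostly to the right of 0 under TMM (of those that passed, Mdh1 and Mdh2 change sign under library size alone), and G6pc1 lies alone at −2.89.

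Of 25 glycolytic genes tested, 5 were higher, 2 lower and 18 did not pass, with a median of 0.30. The share that passed was 28%, beside 43.0% of all genes tested. The higher genes numbered from 2 (without ethanol replicate 1 or control replicate 2 or 3) to 8 (without ethanol replicate 3) and the lower from 0 (without control replicate 1 or 2) to 2 with single libraries left out. Under library size alone 3 of the 5 kept their sign, 1 still passed and 13 of the 25 genes were lower, beside 48.3% of all genes. The liver and muscle phosphofructokinases were lower, Pfkl at 17.5, 21.3 and 11.1 CPM against 28.7, 29.5 and 28.0 (−0.79, adjusted p = 0.026) and Pfkm (−0.66, adjusted p = 0.0223). Neither call held with every library left out, Pfkl passing in 2 and Pfkm in 3 of the 6 such fits, and both passed under library size alone. Of the 17 genes that control fructose 2,6-bisphosphate or pyruvate dehydrogenase, 5 were higher, 2 lower and 10 did not pass, with a median of 0.33, so that 41.2% passed beside 43.0% of all genes. The higher genes numbered from 1 (without control replicate 3) to 6 and the lower from 2 to 3 with single libraries left out. Of the 5 higher genes, 2 kept their sign under library size alone and 1, Pfkfb3, still passed. Of the 17 genes, 7 were then lower, beside 48.3% of all genes. Pdpr, a regulatory subunit of pyruvate dehydrogenase phosphatase, was lower (−1.63, adjusted p = 0.00207 in edgeR), and the phosphatase subunit Pdp2 was higher under TMM (1.05, adjusted p = 0.0142) but not without any 1 of the controls. Pdk4, the kinase that fasting induces in many tissues, was at 20.6, 19.9 and 10.0 CPM against 14.3, 16.2 and 18.8 (0.03, adjusted p = 0.935).

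Among 44 tested regulators of gluconeogenic transcription, 12 were higher, 10 were lower and 22 did not pass, with a median of −0.08, against 21.5% of all genes in each direction. With single libraries left out the list held 11 to 18 higher and 5 to 15 lower genes (18 and 15 without ethanol replicate 3, and 5 lower without ethanol replicate 1 or control replicate 2 or 3). The 12 kept their sign under library size alone and 7 of them still passed, as did all 10 lower genes. Of the 44 genes, 21 were then lower, beside 48.3% of all genes. Cebpb, a cyclic AMP and acute-phase responsive factor, went from 65.0, 73.7 and 77.7 CPM to 775, 773 and 577 (log2 fold change 3.30, adjusted p = 6.4e-05 in edgeR), and Peds1 on the opposite strand had 2462 to 3443 counts after ethanol and 639 to 831 in the controls, beside 31507 to 47300 and 5612 to 6399 for Cebpb. Foxo1, the insulin-restrained factor that binds insulin response letters, went from 27.7, 20.8 and 21.8 to 73.5, 74.3 and 88.7 CPM (1.75, adjusted p = 0.000263). Groups were apart in both genes, with no ethanol library near the controls. Stat3, the transducer of interleukin 6 that represses gluconeogenic genes, was also higher (2.03, adjusted p = 0.000121), as were the glucocorticoid target Klf9 (1.64, adjusted p = 9.88e-05) and the CREB coactivator Crtc2 (1.04, adjusted p = 0.00157). Stat5a, opposite to Stat3, had 534 to 639 counts after ethanol and 907 to 1391 in the controls. Of the salt-inducible kinases, which restrain CRTC proteins, Sik1 (2.12, adjusted p = 0.00235) and Sik3 (1.84, adjusted p = 0.00142) were higher and Sik2 did not pass (0.35, adjusted p = 0.252). Hnf4a, which is also 1 of the 12 hepatocyte markers, was higher under TMM (0.69, adjusted p = 0.00243) and at 0.02 under library size alone.

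Nr0b2 (SHP), a bile acid responsive repressor of gluconeogenic genes, fell from 31.1, 46.8 and 51.0 CPM to 5.75, 4.82 and 6.49 (log2 fold change −2.92, adjusted p = 0.000193 in edgeR), a drop about as large as that of G6pc1. Creb1 was lower (−0.58, adjusted p = 0.0343), but passed in only 1 of the 6 fits with a library left out. Ppargc1b, the relative of Ppargc1a, was at 9.99, 8.55 and 2.03 CPM against 2.06, 1.36 and 1.18 (2.16, adjusted p = 0.0197), with ethanol replicate 3 again among the controls, and passed in 2 of those 6 fits. The glucocorticoid receptor Nr3c1 (0.66, adjusted p = 0.0869) passed without ethanol replicate 3 (0.93, adjusted p = 0.00073) and did not pass without any other single library. Klf15, a fasting-induced regulator of amino acid use, did not pass (−0.07, adjusted p = 0.622, interval in the plot of regulators).

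Genes of the carbohydrate response went both ways, with 7 higher, 5 lower and 6 not passing of 18 tested and a median of 0.10, beside 21.5% of all genes in each direction. Of the 7 higher genes, 5 kept their sign and 4 still passed under library size alone. There 9 of the 18 genes were lower, beside 48.3% of all genes. Mlxipl, which encodes ChREBP, fell from 392, 330 and 346 CPM to 162, 182 and 131 (log2 fold change −1.17, adjusted p = 0.00122 in edgeR). The ChREBP targets G6pc1, Acly (−1.33, adjusted p = 0.0319, passing in 2 of 6 fits with a library left out) and G6pdx (−1.36, adjusted p = 0.00385) were lower. The G6pdx value is uncertain, since Ikbkg on the opposite strand had 2014 to 3316 counts after ethanol and 4479 to 5949 in the controls, beside 117 to 178 and 480 to 714 for G6pdx itself. Others were higher, among them Txnip (1.86, adjusted p = 0.0083), Arrdc4 (1.51, adjusted p = 0.00137) and Khk, the fructokinase (1.30, adjusted p = 0.00233). Srebf1, through which insulin raises lipogenic genes, was at 759, 1000 and 179 CPM against 253, 252 and 234, so that ethanol replicates 1 and 2 lay above and replicate 3 below every control (1.39, adjusted p = 0.0705). Without replicate 3 the difference was 1.85 (adjusted p = 2.63e-05).

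Of 33 tested genes of glucagon, insulin and AMPK signalling, 9 were higher, 4 lower and 20 did not pass, with a median of 0.02, so that 39.4% passed beside 43.0% of all genes. With single libraries left out the list held 6 to 13 higher and 3 to 7 lower genes (13 and 7 without ethanol replicate 3, and 6 higher without control replicate 1 or 3). Under library size alone 5 of the 9 higher genes still passed and 18 of the 33 genes were lower, beside 48.3% of all genes lower there. The receptors for the main hormones did not pass. Gcgr, the glucagon receptor, was at 263, 281 and 183 CPM against 236, 238 and 243 (log2 fold change 0.02, adjusted p = 0.94 in edgeR). Insr, the insulin receptor (−0.21, adjusted p = 0.442), and Irs2, its main substrate in liver (0.59, adjusted p = 0.0847), passed without ethanol replicate 3 (−0.48, adjusted p = 0.00603, and 0.79, adjusted p = 0.00957). Igfbp1, a secreted protein gene that insulin represses through FOXO1, went from 222, 229 and 235 CPM to 3400, 3840 and 1630 (3.69, adjusted p = 0.000294). The alpha adrenergic receptor gene Adra1b was lower (−1.12, adjusted p = 0.000423). Among the enzymes that degrade cyclic AMP, Pde4b (2.38, adjusted p = 0.00327) and Pde4d (1.63, adjusted p = 0.0122, which did not pass without control replicate 1 or 3) were higher. The kinase adaptor Pik3r1 was also higher (1.47, adjusted p = 0.00104). The subunits of AMPK went both ways. The regulatory subunits Prkab1 (1.74, adjusted p = 0.000862) and Prkag1 (0.44, adjusted p = 0.0156) were higher under TMM, but Prkag1 turned sign under library size alone (−0.23) and did not pass without any 1 of the controls. The catalytic subunit Prkaa1 was lower (−1.31, adjusted p = 0.00719), at 3.25, 3.35 and 6.07 CPM against 10.0, 11.4 and 10.0. Prkaa2 (0.07), Prkab2 (−0.18) and Prkag2 (−0.17) did not pass under TMM.

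**Figure D5:**
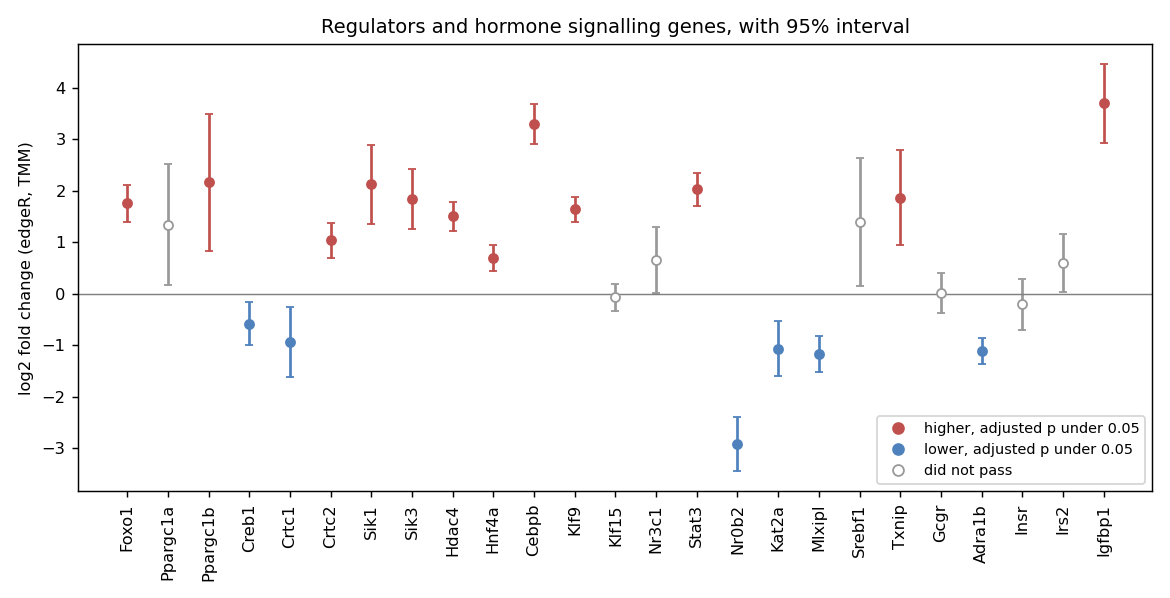
Log2 fold change with its 95% interval (vertical axis, edgeR with TMM) for regulators of gluconeogenic transcription and hormone signalling genes, filled where the adjusted p was under 0.05. Cebpb and Igfbp1 lie above 3, Nr0b2 lies at −2.92, and the receptors Gcgr and Insr lie near 0.

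The transcripts most like Pck1 over the 6 libraries, among the 166 pathway genes compared by log2 CPM, were Pdp2 (Pearson r = 0.989), Tkt (0.983) and Ppargc1b (0.982). For G6pc1 they were Slc37a2 (0.977), Pfkl (0.975) and Kat2a (0.974). The 6 points share the group difference and the low values of ethanol replicate 3, and the correlations are a description only.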

How the data were processed

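Liver RNA-seq of 3 acute ethanol-exposed and 3 control mice was analysed, each library taking its group from its own label. The authors deposited whole-number counts of reads per Ensembl gene, not normalized, and beside them FPKM values that the authors scaled to transcript length and library size. Reads with adaptors, low quality or ambiguous bases were removed before alignment, and the aligner, the counting software and the use of strand are not given in the sources used here, so genes that overlap are uncertain. The submitters' processing notes name GRCm38 (mm10), but 494 of 27049 genes shared with GENCODE's GRCm38 annotation have the same coordinates, so gene positions are as in the deposited table, of unsettled build, and promoter sequences carry RefSeq's own GRCm38.p6 positions. A further column of counts (1 in all) matches no sample and was not used.

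Genes were kept by filterByExpr (16717 of 28880), scaled by TMM and compared by edgeR's quasi-likelihood test (two-sided, no covariates) with Benjamini-Hochberg adjustment over all genes tested. Differentially expressed genes had an adjusted p under 0.05 and an absolute log2 fold change above 1, as in the study. Within-library ratios of FPKM were compared by an exact permutation test. R 4.3.3, edgeR 4.0.16, limma 3.58.1, DESeq2 1.42.0, the data.table package (version 1.17.8), Python 3.11.15, scipy 1.17.1 and matplotlib 3.10.9 were used, and the tests were checked on simulated counts. Totals of 60514417 to 74210869 counts per library leave the spread between mice (square root of the common dispersion 0.299) as the main error. Libraries of a group differed by more than counting noise (chi-square per degree of freedom 54.4 to 521), so none was treated as a duplicate. With 3 libraries per group, no outlier test was run.

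The 9 genes, the lists and the tests were chosen with earlier results of these data known. Named genes are the 9, their isoenzymes and opposed enzymes, a set of hormonal and transcriptional inputs, up to 6 genes per pathway list with the largest change among those past both thresholds without overlap, and the 3 genes most like Pck1 and G6pc1. Some results under this rule are not reported here. Other list genes are named as examples, chosen after their values were seen. Alternatives were DESeq2, other scalings and filters, limma on log2(FPKM + 1) and log2(FPKM + 0.1) for genes with an FPKM of at least 0.1 in 3 libraries, the replicate number as a block, and each library left out in turn. Scaling to the hepatocyte markers and the ratio of Slc37a4 to G6pc1 were added after seeing the data.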

Additional observations from a re-analysis of the deposited data

How the results depend on the processing

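The rise of Slc37a4 and Pfkfb3 and the fall of G6pc1 passed under every alternative that tested them (Pfkfb3 and Ppargc1a drop out under a minimum mean FPKM of 5). The ratios of Fbp1 to Pfkl and of Pck1 to Pklr kept their direction in every alternative run. Under library size alone, a mean FPKM of at least 5, limma on log2(FPKM + 1), limma on log2(FPKM + 0.1) and, added after seeing the data, scaling to the hepatocyte markers, Pck1 no longer passed (log2 fold changes 0.37, 0.74, 0.28, 0.28 and 0.28), while Gckr (−0.77, −0.37, −0.75, −0.77 and −0.85) and Pklr (−1.38, −1.01, −1.43, −1.48 and −1.47) passed as lower. Under all of these but the FPKM minimum, Pcx no longer passed (0.19, 0.19, 0.19 and 0.12) and Fbp1 changed sign (−0.05, −0.05, −0.05 and −0.12). Ppargc1a passed in DESeq2 (1.32). Of the 9 genes, 2, 3, 2, 2 and 2 were then higher and 3 lower in each, and 1 was a differentially expressed gene with higher and 2 with lower level in each. Among 16717 genes, higher and lower calls numbered 3598 and 3591 under TMM, 1236 and 8077 under library size alone, and 1117 and 8648 with marker scaling. With the FPKM minimum they numbered 1266 and 1191 among only 4328 genes. In limma with 1 or 0.1 added they numbered 1182 and 8226 or 1196 and 8167, among 16012 genes. The different centring of each scaling shows in the median gene (−0.71 under library size alone, −0.79 with marker scaling), and which scaling fits these livers was not tested. Leaving out single libraries moved the log2 fold change of Pck1 between 0.80 and 1.31, G6pc1 between −3.2 and −2.46, Fbp1 between 0.55 and 0.72, Pcx between 0.76 and 0.96, Ppargc1a between 1.07 and 1.78, Gckr between −0.14 and −0.05, Pklr between −0.99 and −0.41, Pfkfb3 between 2.74 and 3.17 and Slc37a4 between 1.39 and 1.56, and the 9 genes then held 4 to 6 higher and 1 to 1 lower calls, of which 2 to 4 higher and 1 to 1 lower were differentially expressed. Among all genes, calls in these fits ran from 2463 to 4284 higher and from 2311 to 4668 lower. The lower calls numbered 2340 without control replicate 2 and 2311 without control replicate 3.

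The replicate numbers do not pair the libraries, since deviations of same-numbered libraries from their group means correlated at −0.04, −0.03 and −0.01. With the replicate number as a block, 5 of the 9 genes were higher and 1 lower, as without it, Pck1 was at 0.95 (adjusted p = 0.0288 in edgeR), and 2890 higher and 2886 lower genes were called overall. The higher glycolytic genes then numbered 2 in place of 5.

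Mice of 1 sex, dose and time point, 3 per group, with unstated feeding of the controls, limit the comparison, and ethanol replicate 3 differed from the other two in several of these genes. Depth limits only the lowest transcripts named here, such as G6pc2 and the neutrophil markers.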
